A study of Arabidopsis thaliana with 4 samples.

Results

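The cytochrome P450 genes of Arabidopsis thaliana were examined for DNA associated with FHY1, the chaperone that brings phyA, the receptor for far-red light, to the nucleus. Members were the nuclear protein-coding genes whose symbol has the form of a P450 name, CYP followed by a family number, a subfamily letter and a gene number. The flavonoid, cinnamate and brassinosteroid genes AT5G07990, AT2G30490, AT3G50660 and AT5G05690 were left out. The rule gave 219 genes in 40 families, out of 27444 nuclear protein-coding genes. For each of them the peaks of the 3 replicate lists that overlapped the gene, extended by 1000 bp at both ends, were taken by at least 1 bp. This set of genes was proposed with peak results of these data already known, so the counts and folds below describe the genes and were given no test.

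Sequencing of immunoprecipitated chromatin (ChIP-seq) was done on seedlings that express a GFP-FHY1 fusion (35S:GFP-FHY1) in the fhy1-1 mutant. The 35S promoter is active in most plant cells, so the fusion is not limited to the cells that normally make FHY1. All samples were 4-day-old dark-grown seedlings given far-red light for 3 h, and the 1 genotype and 1 light treatment are shared by every library. There were 3 biological replicates of the ChIP, with an anti-GFP antibody in the sample labels and an antibody against FHY1 in the design text, and 1 input that was not analysed here. Whole seedlings were used, so association in few cells and weak association in many cells cannot be told apart.

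P450 enzymes bind a heme and use molecular oxygen to oxidise small molecules, and most plant forms sit in the membrane of the endoplasmic reticulum and receive electrons from a P450 reductase. Plant P450s are sorted by sequence into clans. The CYP71 clan holds most enzymes of plant-specific defence compounds, phenylpropanoids and glucosinolates, the CYP86 clan oxidises fatty acids for cutin, suberin, wax and pollen walls, and the CYP72 and CYP85 clans act on hormones, sterols and other terpenoids. Clans of a single family include the sterol demethylase CYP51 and the carotenoid hydroxylases CYP97. Many P450 genes lie side by side in tandem arrays of close relatives.

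The 3 lists differ in length, which bears on every count. Replicates 1, 2 and 3 held 8423, 28170 and 19150 peaks, which covered 9.51, 22.4 and 19 Mb. How deeply each library was sequenced is unknown, because only tags inside peaks were listed. The authors' fold enrichment of a peak, whose background the sources do not state, was at least 2.95 in each list and had a median of 4.06, 3.92 and 4.16. Replicate 1, the shortest list, therefore limits how many genes can have a peak in all 3.

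The share of P450 genes with a peak in all 3 replicates was lower than the share of all protein-coding genes, and the distance between the shares was widest in replicate 1. A peak was found in all 3 replicates for 49 members (22.4%, against 34.1% of all protein-coding genes). In exactly 2 replicates it was found for 89 (40.6%, against 32.1%), in 1 for 50 (22.8%, against 20.5%) and in none for 31 (14.2%, against 13.4%). In replicate 1 alone, 62 members had a peak (28.3%, against 40.1%). In replicate 2 there were 166 (75.8%, against 79%), and in replicate 3 there were 147 (67.1%, against 67.7%). The pattern of a peak in replicates 2 and 3 but not in 1 held for 76 members (34.7%, against 27%), whereas no member had a peak in replicate 1 alone. With each list reduced to its 8423 highest scores, the members' share was below that of all genes in every replicate, at 28.3%, 32.9% and 32.9% in replicates 1, 2 and 3, against 40.1%, 37.5% and 38.3%.

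The members' share and the share of all genes rose together with the window. Among the settings that keep the 219 members, the distance between the shares was smallest without replicate 1. With windows of 0, 500 and 2000 bp, 28, 40 and 73 members had a peak in all 3 replicates (12.8%, 18.3% and 33.3%, against 23.6%, 29.4% and 43.6% of all genes). With the midpoint of the peak, or at least 0.5 of its length, required in the window of 1000 bp, it was 40 each time (18.3%, against 28.8%). In the lists of equal length it was 22 (10%, against 17.9%), and at a false discovery rate of at most 1% it was 35 (16%, against 24.6%). Without replicate 1, 125 members had a peak in both other replicates (57.1%, against 61%). Without replicate 2 it was 58 (26.5%, against 36%) and without replicate 3 it was 53 (24.2%, against 37.3%).

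**Figure D1:**
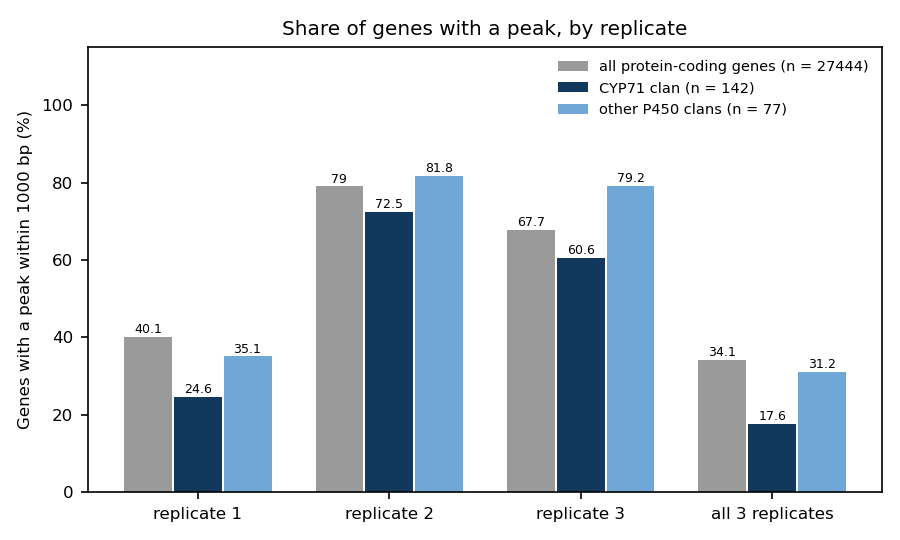
Bars give the percent of genes with at least 1 peak within 1000 bp in each replicate and in all 3, for all 27444 protein-coding genes, the 142 genes of the CYP71 clan and the 77 members of the other clans. In replicate 1 the CYP71 clan is at 24.6% and all genes at 40.1%, while the other clans are above all genes in replicates 2 and 3.

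The CYP71 clan, which holds most of the members, had a lower share with a peak in all 3 replicates than the other clans as 1 group. In the CYP71 clan, 25 of 142 genes had a peak in all 3 replicates (17.6%) and 26 had none (18.3%), against 34.1% and 13.4% of all genes. The other clans together had 24 of 77 in all 3 (31.2%) and 5 with none (6.49%). In replicate 3 the share was 60.6% in the CYP71 clan and 79.2% in the others, on either side of the 67.7% of all genes. The CYP86 clan had 11 of 31 genes in all 3 (35.5%), the CYP72 clan 6 of 18 (33.3%), the CYP85 clan 4 of 20 (20%) and the single-family clans 3 of 8 (37.5%). Every gene of the CYP72 clan and of the single-family clans had a peak in at least 1 replicate, whereas 13.4% of all genes had none. In the CYP72 clan 15 of the 18 had a peak in at least 2 (83.3%, against 66.2% of all genes). The order of the CYP71 clan and the others turned when peaks below a fold of 4 were left out, with 9 of 142 (6.34%) and 3 of 77 (3.9%), against 13.8% of all genes. The CYP71 and CYP85 clans had no fixed order. Without replicate 2 they were at 22.5% and 20%, and with a window of 2000 bp at 31% and 30%. In total 23 of the 40 families had a member with a peak in all 3 replicates.

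**Figure D2:**
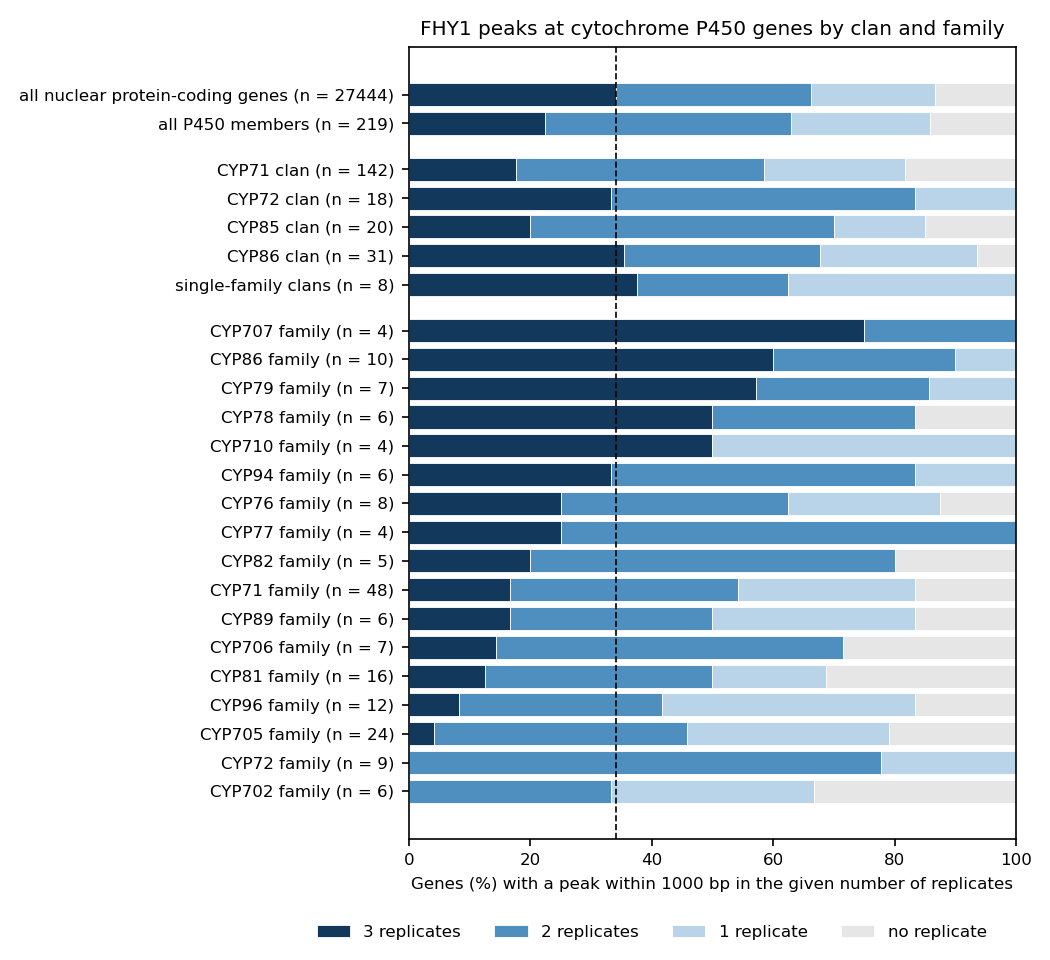
Each bar divides the genes of a clan, or of a family with at least 4 members, by the number of replicates with a peak within 1000 bp, in percent of the genes given by n. The dashed line marks the 34.1% of all protein-coding genes with a peak in all 3 replicates, which the CYP707, CYP86, CYP79, CYP78 and CYP710 families exceed and the large CYP71, CYP81, CYP96 and CYP705 families do not reach. With no flank, CYP86, CYP79 and CYP78 are below the share of all genes, while CYP707 and CYP710 stay above it.

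Within the CYP71 clan, the CYP79 enzymes turn amino acids into aldoximes, the first step of glucosinolate synthesis. A peak in all 3 replicates was found for 4 of the 7 CYP79 genes (57.1%, against 34.1% of all genes). With no flank it was 1 of 7 (14.3%, against 23.6%), so the direction turned, and in the lists of equal length it was 2 of 7 (28.6%, against 17.9%). CYP79B2 and CYP79B3, which act on tryptophan, had folds of 3.40, 5.50 and 6.04 and of 3.94, 4.79 and 3.45 in replicates 1, 2 and 3. For both, the best peak of each replicate was nearest to the gene itself. Nearest means the coding gene that holds the midpoint of the peak or, failing that, lies closest to it. The 3 best peaks of CYP79B3 did not overlap each other, and the 566 bp covered in all 3 replicates lay outside them. CYP79A2, which acts on phenylalanine, had folds of 4.99, 4.45 and 2.95, but in replicates 1 and 3 its peak was nearest to the neighbour AT5G05250. CYP79C1 had 5.91, 5.32 and 5.77, the highest of all members by the lowest of the 3 folds. The genes of the adjacent methionine enzymes CYP79F1 and CYP79F2 had a peak in 2 replicates each. The folds of CYP79F1 were 3.68 in replicate 1 and 3.23 in replicate 3, those of CYP79F2 were 3.16 in replicate 2 and 3.23 in replicate 3, and 1 replicate 3 peak gave both last values. CYP79C2 had a peak in replicate 2 alone, with a fold of 4.58.

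The next step of the same pathway was split. CYP83B1, which takes on the indole aldoxime, had folds of 5.22 in replicate 2 and 5.27 in replicate 3 and no peak in replicate 1. Its replicate 3 peak was nearest to AT4G31490. CYP83A1, the counterpart of CYP83B1 for aliphatic glucosinolates, had no peak in any replicate, and the nearest lay 3970 bp away. The CYP81F enzymes, which modify indole glucosinolates, had peaks in 2 replicates each. CYP81F2 had folds of 3.67 and 3.29 and CYP81F3 of 5.43 and 4.71 in replicates 2 and 3, while CYP81F4 had 3.58 and 3.25 in replicates 1 and 2. Both peaks of CYP81F4 were nearest to AT4G37420. None of the 3 CYP81F genes therefore had a peak in all replicates, against 34.1% of all genes. All 3 had one in at least 2 replicates (100%, against 66.2%).

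The CYP81 family as a whole had 2 of 16 genes with a peak in all 3 replicates (12.5%, against 34.1% of all genes). It had 5 with none (31.2%, against 13.4%). The 2 with a peak in all 3 were CYP81G1, with folds of 4.30, 5.53 and 3.54, and CYP81H1, with 3.16, 5.21 and 4.56. The peaks of CYP81G1 were nearest to the neighbour MYBR1 in all 3 replicates, and those of CYP81H1 to MEE59 in replicates 1 and 3. Of the 9 CYP81D genes none had a peak in all 3 replicates, and CYP81D1, CYP81D6, CYP81D7 and CYP81D11 had no peak at all. CYP81D6 lay 9431 bp from the nearest peak, the largest distance among the members.

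In the CYP71 family, the largest with 48 genes, all members with a peak in all 3 replicates were in subfamily B. None of the 16 CYP71A genes had a peak in all 3 replicates. Of the 32 CYP71B genes 8 had one (25%), which is also below the 34.1% of all genes. The camalexin genes CYP71A12 and CYP71A13, which make an indole phytoalexin, had a single replicate each, at a fold of 4.04 in replicate 3 and of 4.17 in replicate 2. The marneral oxidase gene CYP71A16 had 3.23 in replicate 2 and 5.04 in replicate 3. Among the CYP71B genes, CYP71B2 had the highest lowest fold, with 5.09, 4.67 and 6.76. Its best peak lay at the gene itself in replicate 1 but was nearest to the adjacent CYP71B28 in replicates 2 and 3. CYP71B28 had 3.69, 4.67 and 6.76, so that the values of replicates 2 and 3 are the same peaks. CYP71B31, which takes part in linalool oxidation in flowers, and its neighbour CYP71B32 shared all 3 peaks, with folds of 4.75, 4.11 and 4.26. CYP71B6, CYP71B13, CYP71B23 and CYP71B3 were the other members of the subfamily with a peak in all 3.

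In CYP705, with 24 genes, CYP705A24 alone had a peak in all 3 replicates (4.17% of the family, against 34.1% of all genes), with folds of 5.44, 4.69 and 5.52, and it was also the only CYP705 gene with a peak in replicate 1. In replicate 2 a peak was found for 18 of the 24 (75%, against 79% of all genes) and in replicate 3 for 12 (50%, against 67.7%). The thalianol pathway gene CYP705A5 and CYP705A1, which cleaves arabidiol in roots, had replicate 2 peaks alone, at folds of 3.20 and 2.96. CYP705A30 and CYP705A32 shared a replicate 2 peak with a fold of 8.54, which among members only CYP706A6 (9.76) and CYP704B1 (9.57) exceeded in that replicate. They also shared a replicate 3 peak at 4.49.

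The smaller CYP71-clan families held several genes of growth and of cell walls. In CYP78, whose enzymes promote organ and seed growth by an unknown product, CYP78A10, CYP78A6 and CYP78A7 had a peak in all 3 replicates. These are 3 of the 6 genes of the family (50%, against 34.1% of all genes). With no flank it was 1 of 6 (16.7%, against 23.6%), so the direction turned. The folds of CYP78A6 were 5.41, 4.58 and 5.10, and all 3 summits lay inside the gene. Those of CYP78A10 were 5.11, 6.71 and 5.29, but the peaks lay mostly in the gap to SOT16, a sulfotransferase gene of glucosinolate synthesis, and were nearest to SOT16 each time. CYP78A7 had 14.12 in replicate 1, the highest fold of any member, and 3.69 and 3.83 in replicates 2 and 3. The replicate 1 value stands far above both others, and the mean is 7.21 ± 5.98 (SD, n = 3). CYP78A5, known as KLUH, had no peak in any replicate, and the nearest lay 2255 bp away.

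CYP98A3, the hydroxylase of lignin precursors, had folds of 4.39, 5.08 and 5.36, but its peaks did not share a stretch and only that of replicate 3 was nearest to CYP98A3. The pollen enzymes CYP98A8 and CYP98A9, which lie side by side, shared 1 weak replicate 2 peak at a fold of 2.96. CYP77A6, which adds the in-chain hydroxyl group of flower cutin, had 4.83, 4.75 and 4.06, with summits 177, 152 and 117 bp outside the gene. These values span a narrow range, and 1445 bp were covered in all 3 replicates. CYP82C4, which makes an iron-mobilising coumarin, had 3.08, 3.64 and 4.55 in peaks nearest to the neighbour AT4G31930, while the homoterpene gene CYP82G1 had no peak. CYP89A9, an enzyme of chlorophyll breakdown, had 3.72, 4.57 and 4.73, and CYP76C3, another linalool enzyme, had 6.27, 4.23 and 3.70. The first and last of the CYP76C3 peaks were nearest to AT2G45590, and the replicate 1 peak of CYP89A9 was nearest to AT3G03460.

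In the CYP86 clan, the CYP86 family holds fatty acid hydroxylases of surface lipids. A peak in all 3 replicates was found for 6 of 10 CYP86-family genes (60%) and for 1 of 12 CYP96 genes (8.33%), against 34.1% of all genes. The share of the CYP86 family was below that of all genes with no flank (2 of 10, 20% against 23.6%) and with each peak counted for 1 gene only (1 of 10, 10% against 16.8%). It was close to it by shared stretch (3 of 10, 30% against 28.5%) and in the lists of equal length (2 of 10, 20% against 17.9%). The cutin genes CYP86A2 and CYP86A8, known from the att1 and lacerata mutants, had folds of 6.03, 3.32 and 4.16 (CYP86A2) and of 5.54, 4.18 and 3.28 (CYP86A8). The replicate 2 peak of CYP86A2 was nearest to ANTR2. The replicate 1 peak of CYP86A8 was 7464 bp wide and nearest to PIP1B, as was that of replicate 2. CYP86A4, which makes flower cutin, had 5.87, 3.54 and 4.22. It lies beside GPAT4, an acyltransferase gene of cutin synthesis, which was nearest to the replicate 3 peak and shares the replicate 1 peak. CYP86A7 had 3.91, 6.45 and 4.97, nearest to the gene in each replicate. CYP86C3 and CYP86C4 shared the replicate 1 peak at 3.05. CYP86A1, the root suberin hydroxylase, had replicate 2 alone at 4.30, and CYP86B1, which acts on very long chains in suberin, had 6.16 and 3.76 in replicates 2 and 3.

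CYP704B1, which acts in the synthesis of sporopollenin for the pollen wall, had folds of 4.04, 9.57 and 6.5, with summits 246, 239 and 197 bp outside the gene. The peaks were nearest to AT1G69510 in each replicate. Its partner in sporopollenin synthesis, CYP703A2, had a replicate 2 peak alone at 3.29. CYP704A2 had 3.91, 5.55 and 4.89, the latter pair nearest to other genes. The CYP94 enzymes oxidise fatty acids and the hormone conjugate jasmonoyl-isoleucine. Of the 6 genes 2 had a peak in all 3 replicates (33.3%, against 34.1% of all genes). These were CYP94B3 with 4.16, 3.70 and 4.77 and CYP94C1 with 3.30, 4.17 and 4.60. The best peaks of both were nearest to the gene itself in all 3 replicates. CYP94B1, another jasmonate enzyme, had 4.06 and 4.37 in replicates 2 and 3. In CYP96, CYP96A9 had 4.18, 3.95 and 4.31, with no stretch covered by all 3 and with the peaks of replicates 1 and 3 nearest to AT4G39470. The midchain alkane hydroxylase gene CYP96A15 had a replicate 2 peak alone at 4.44.

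In the CYP85 clan, the CYP707A enzymes inactivate abscisic acid by hydroxylation, and 3 of the 4 genes had a peak in all 3 replicates (75%, against 34.1% of all genes). CYP707A1 had folds of 3.79, 3.94 and 5.11, CYP707A2 of 3.41, 3.76 and 5.09 and CYP707A3 of 3.93, 4.39 and 5.8. In all 3 genes replicate 3 was highest and replicate 1 lowest, and each peak was nearest to the gene itself. CYP707A4 had 4.12 and 4.35 in replicates 2 and 3. At CYP707A1 and CYP707A3 a stretch of 1336 and 1332 bp was covered in all 3 replicates, on chromosome 4 from 10522474 to 10523809 and on chromosome 5 from 18370161 to 18371492 (TAIR10). The stretch at CYP707A1 is not at the best peaks of replicates 2 and 3, and no stretch was covered by all 3 at CYP707A2.

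In the same clan none of the 6 CYP702 and 3 CYP708 genes had a peak in all 3 replicates, nor any in replicate 1. Of all genes, 34.1% and 40.1% had one. The thalianol hydroxylase gene CYP708A2 had 4.48 and 3.38 in replicates 2 and 3. CYP716A1, 1 of the 2 CYP716 genes, had 3.12, 3.99 and 3.58, nearest to the neighbour CCB3 each time. The gibberellin synthesis gene CYP88A3 (3.20 and 4.10), the brassinosteroid gene CYP90D1 (4.39 and 5.31), CYP724A1 (5.42 and 3.67) and CYP87A2 (3.6 and 4.67) had peaks in replicates 2 and 3. Both CYP724A1 peaks were nearest to AT5G14410. The replicate 3 peak of CYP88A3 was nearest to AT1G05150 and the replicate 2 peak of CYP90D1 to PRA8. CYP722A1 had 4.08 and 4.09 in replicates 1 and 2.

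In the CYP72 clan all 3 CYP709 genes had a peak in all 3 replicates, against 34.1% of all genes. CYP709B2 had folds of 4.90, 6.01 and 5.61 and CYP709B1 of 4.52, 5.82 and 4.80. These genes are neighbours. The best peaks of CYP709B1 span the gap between them, while those of CYP709B2 lie at its other end. The salt-response gene CYP709B3, on another chromosome, had 3.72, 3.48 and 5.57, nearest to other genes in each replicate. CYP714A1, whose enzyme modifies gibberellins, had 3.46, 5.56 and 4.96, and the adjacent CYP714A2 had 4.97 and 5.46 in replicates 2 and 3. CYP715A1 had 3.72, 6.65 and 5.28. The cytokinin hydroxylase genes CYP735A1 and CYP735A2 had no replicate 1 peak, and their folds were 3.79 in replicate 2 and, for CYP735A2, 3.32 and 3.38 in replicates 2 and 3.

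In the CYP72 family none of the 9 genes had a peak in replicate 1, against 40.1% of all genes. In each of replicates 2 and 3, 8 of the 9 had one (88.9%, against 79% and 67.7%). These counts are not of separate peaks, because 8 of the 9 genes lie beside other P450 genes and can share a peak. The 6 neighbours from CYP72A7 to CYP72A13 had 4 distinct peaks in each of these replicates. In replicates 2 and 3, CYP72A11 and CYP72A13, which share both peaks, had 6.2 and 5.72, and CYP72A14 had 5.92 and 6.36. The highest fold of the family, 6.86 in replicate 3 at CYP72A7, was of a peak 988 bp away and nearest to AT3G14595. CYP72C1, whose enzyme inactivates brassinosteroids, had 4.77 and 4.23.

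Among the single-family clans, CYP710A1 and CYP710A2, which desaturate the side chain of sterols, had peaks in all 3 replicates, with folds of 3.38, 3.90 and 4.90 and of 3.99, 4.39 and 3.98. In replicates 1 and 3 the best peak of CYP710A2 was nearest to AT2G34480. The other pair of the family, CYP710A3 and CYP710A4, had a single replicate each, at 5.66 in replicate 3 and 3.36 in replicate 2. The CYP710A3 peak was nearest to XBAT31, with its summit 2512 bp outside CYP710A3. The carotenoid hydroxylase gene CYP97A3 had 3.49, 3.32 and 3.33, close together and near the lowest fold of the lists, and CYP97B3 had 3.75 in replicate 3. The replicate 3 peaks of CYP97A3 and CYP97B3 were nearest to AT1G31790 and scpl30. The sterol demethylase gene CYP51G1 had 5.48 and 6.06 in replicates 1 and 3 and no peak in replicate 2, the longest list. The strigolactone gene CYP711A1, known as MAX1, had 3.77 and 4.49 in replicates 2 and 3.

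**Figure D3:**
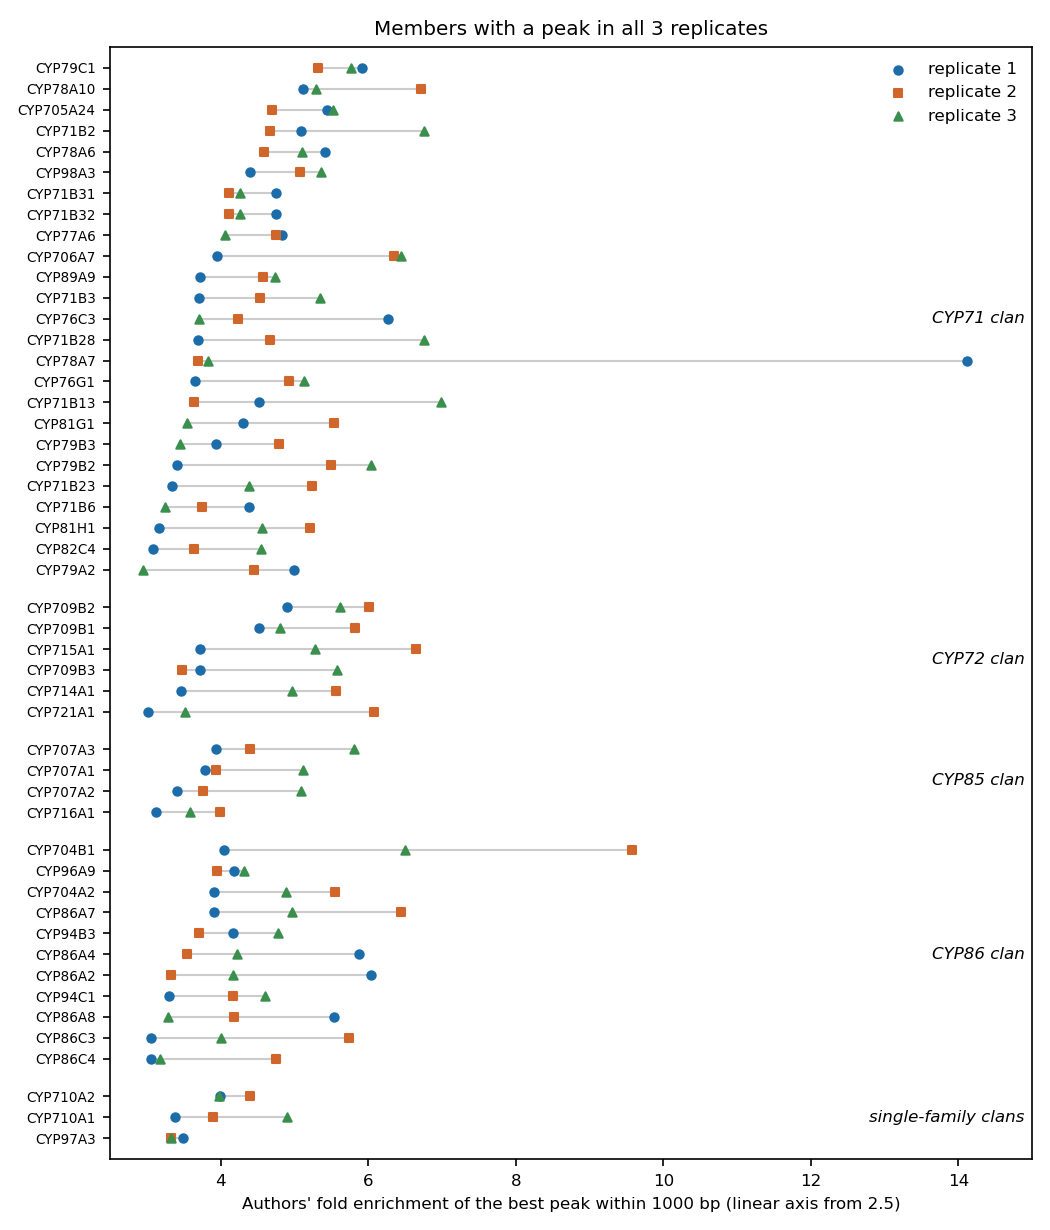
Each row is 1 of the 49 members with a peak in all 3 replicates, and the symbols give the authors' fold of its best peak in replicates 1, 2 and 3 on a linear axis that starts at 2.5. Most values lie between 3 and 7, the order of the replicates varies from gene to gene, and CYP78A7 in replicate 1 (14.12) and CYP704B1 in replicate 2 (9.57) lie apart.

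The ranks of the members by fold were only weakly related between replicates. Over the 49 members with a peak in all 3, the median of the lowest fold was 3.69, against 3.82 for the 9352 protein-coding genes of the same kind. Spearman's rho between replicates was -0.13 for 1 and 2, 0.03 for 1 and 3, and 0.27 for 2 and 3, and over the 9352 genes it was 0.13, 0.22 and 0.20. These are descriptions across genes, some of which share a peak. The highest fold fell in replicate 1 for 13 of the 49, in replicate 2 for 17 and in replicate 3 for 19. A fold of at least 5 in all 3 replicates was reached by CYP79C1 and CYP78A10 (0.913% of members, against 2.85% of all genes).

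Most of the members with the highest lowest fold had a stretch covered in all 3 replicates (TAIR10 positions). At CYP79C1 the 666 bp from 29856985 to 29857650 on chromosome 1 were covered in all 3 replicates, and the summits lay 598, 557 and 621 bp outside the gene. At CYP78A10 it was 27865416 to 27866437 on chromosome 1. At CYP709B2 it was 19287842 to 19288961 on chromosome 2, and across the gap to CYP709B1 it was 19291286 to 19292402. CYP705A24 had 9991589 to 9992119 on chromosome 1, with summits 912, 866 and 921 bp outside the gene. At CYP78A6 the stretch from 19153450 to 19154460 on chromosome 2 lay in the gene. Of the 12 members with the highest lowest fold, all but CYP98A3 had such a stretch, and its median width over 37 members was 680 bp, against 765 bp over all genes that have one.

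**Figure D4:**
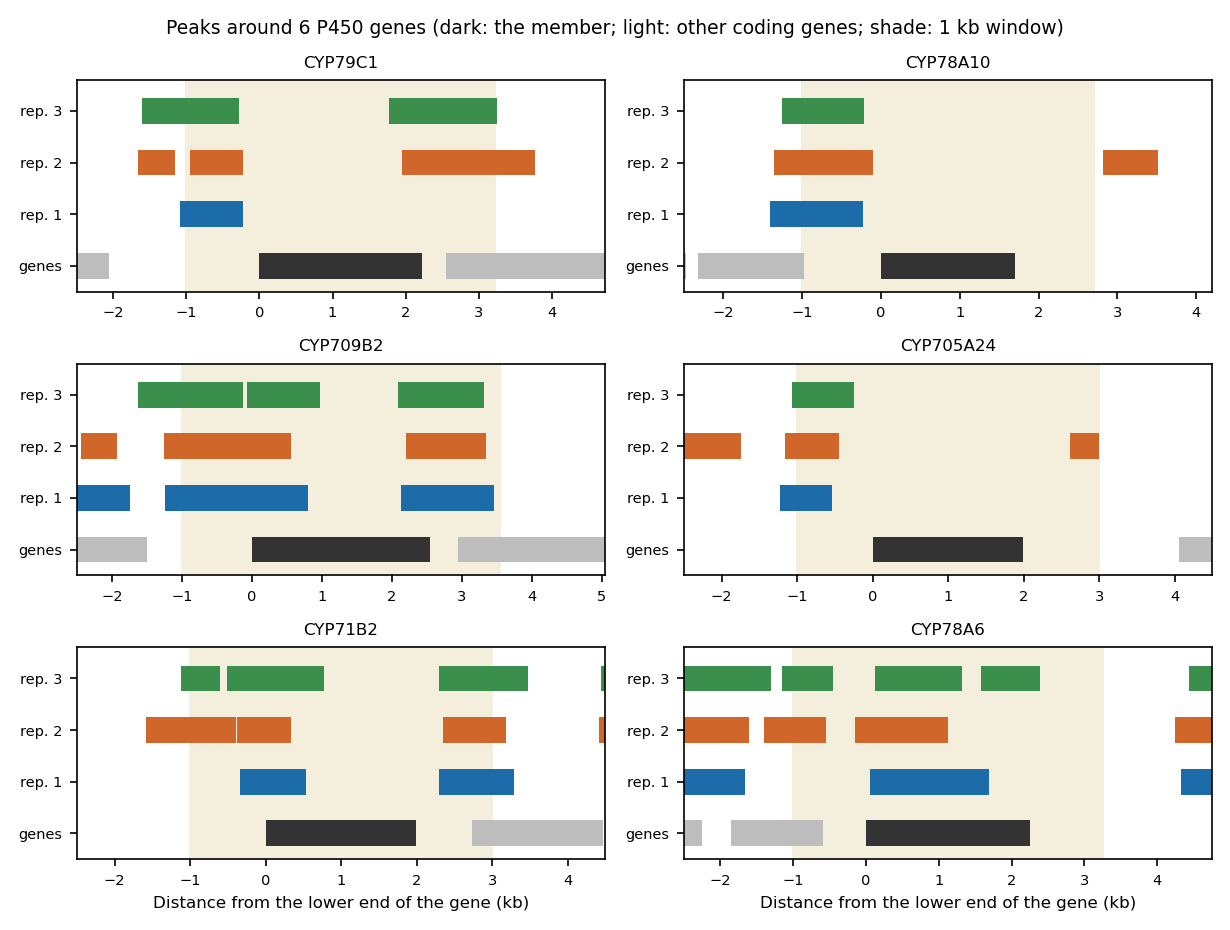
For the 6 members with the highest lowest fold, bars show the deposited peaks of replicates 1 to 3 above the coding genes, along the distance in kb from the end of the member with the lower coordinate (dark, the member; light, other genes; shaded, the window of 1 kb on both sides). Peaks of the 3 replicates lie over each other beside CYP79C1, CYP78A10 and CYP705A24, at both ends of CYP709B2 and CYP71B2, and inside CYP78A6.

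A peak in all 3 replicates did not always mean a common place. Of the 49 members, 37 had a stretch covered in all 3 (16.9% of all members, against 28.5% of all genes). The other 12 had no stretch covered by all 3, among them CYP78A7, CYP86A4, CYP94C1, CYP98A3, CYP707A2 and CYP709B3. Peaks of 2 replicates could still overlap, as those of replicates 1 and 2 at CYP78A7 and of replicates 2 and 3 at CYP709B3. For 20 of the 49 the best peak was nearest to the member in every replicate (40.8%, against 33.1% of the 9352 genes). For 8 it was nearest to another gene in every replicate, or its midpoint lay in that gene. These were CYP71B32, CYP78A10, CYP81G1, CYP82C4, CYP86C4, CYP704B1, CYP709B3 and CYP716A1. With each peak counted for 1 gene only, 26 members had a peak in all 3 replicates (11.9%, against 16.8% of all genes). Over all members with a peak, the best one was nearest to the member for 59.7%, 60.8% and 51.7% in replicates 1, 2 and 3. For all genes it was 55.4%, 58.5% and 56.8%. A fold given above without its nearest gene can therefore be of a peak nearest to another gene.

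The position of the summits was set beside that of all genes. Of the best peaks with a summit outside the gene, the median distance was 633, 586 and 574 bp in replicates 1, 2 and 3, against 400, 421 and 393 bp for all protein-coding genes. In the CYP71 clan it was 860, 631 and 574 bp. In the other clans it was 348, 491 and 576 bp, so that in replicate 1 these lay nearer to the gene than the median of all genes. The first 250 bp outside the gene held 16.1%, 21.1% and 21.1% of the members' summits, against 30.5%, 27.1% and 30.3%. Summits inside the gene made up 33.9%, 29.5% and 29.9%, against 25.6%, 27.9% and 25.4%. Gene strand was left aside, so the sides of transcription start and end were not told apart.

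Members in runs of neighbouring P450 genes had a lower share than members that stand alone. A run could hold genes of different families, such as CYP96A1 with CYP81D7. In all, 107 members lay in 34 runs of at least 2 neighbouring member genes with no other protein-coding gene between them, and 112 lay alone. In runs 17 of 107 genes had a peak in all 3 replicates (15.9%), and outside runs 32 of 112 (28.6%), against 34.1% of all genes. The difference between clans was seen on both sides, with 13.6% and 23.1% for the CYP71 clan and the other clans in runs, and 23% and 35.3% outside them. Among these shares, only the last was not below that of all genes, and it was close to it. With each run counted once, 47 of 146 had a peak in all 3 (32.2%, against 34.1% of all genes). A peak in at least 2 was then found for 105 of 146 (71.9%, against 66.2%). The members' share was thus close to that of all genes in all 3 and above it in at least 2, but a run spans more DNA than a gene.

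The longest run, 9 CYP71B genes on chromosome 3 from CYP71B16 to CYP71B24, had replicate 1 peaks near CYP71B23, CYP71B3 and CYP71B24 alone, at its end with the higher coordinates. There 2 distinct replicate 1 peaks served 3 genes. CYP71B17, CYP71B19 and CYP71B21 of that run had no peak in any replicate. The run of 7 genes from CYP705A15 to CYP705A23 had no replicate 1 peak and 1 replicate 3 peak, shared by CYP705A21 and CYP705A22. The 7 genes from CYP71B25 to CYP71B37 and the 6 from CYP72A7 to CYP72A13 had no replicate 1 peak either. In the 6 genes from CYP81H1 to CYP81D8 replicate 1 had 1 peak, at CYP81H1, and replicate 2 had 11 peaks that touched all 6. The pairs CYP705A2 with CYP705A3 and CYP71A28 with CYP71A27 had no peak in any list.

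**Figure D5:**
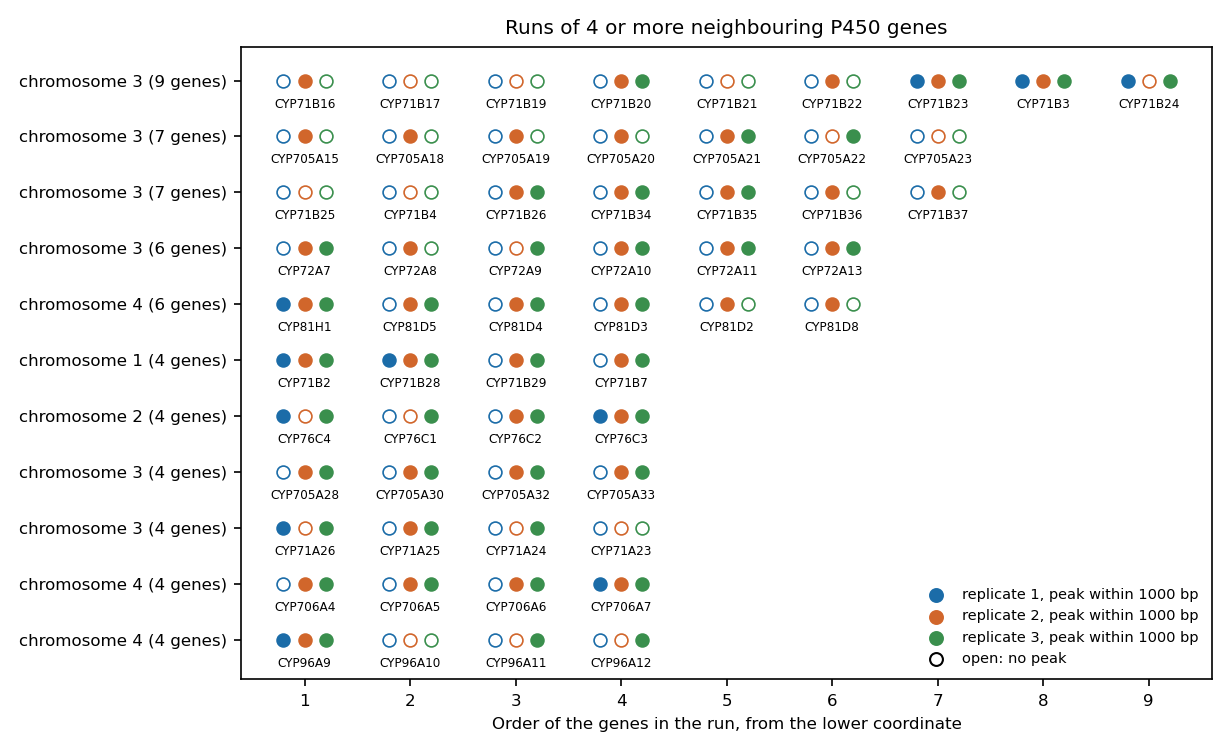
Each row is a run of 4 or more neighbouring P450 genes in order of their coordinates, and each gene has 3 circles for replicates 1 to 3, filled where a peak lies within 1000 bp. Replicate 1 circles are filled at 1 gene in 4 of the runs, at 2 or 3 genes in 3 runs and at none in 4 runs.

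The lower share was seen in every class of gap between genes and in every class of gene length with more than 2 members. Members were grouped by the larger of the gaps to the neighbouring coding genes. A peak in all 3 replicates was found in 12 of 64 members with a gap under 1000 bp (18.8%, against 36.3% of all genes in that class). It was found in 15 of 55 from 1000 to under 2000 bp (27.3%, against 36%). From 2000 to under 4000 bp it was 10 of 43 (23.3%, against 34.1%), and from 4000 bp 12 of 57 (21.1%, against 27.4%). By gene length it was 12 of 88 from 1500 to under 2000 bp (13.6%, against 34.4%), 25 of 77 from 2000 to under 2500 bp (32.5%, against 38.4%) and 12 of 52 from 2500 bp (23.1%, against 40.5%). The median length was 2054 bp in members and 2078 bp in all genes.

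On chromosome 2 the members' share was above that of all genes. There 13 of 33 members had a peak in all 3 replicates (39.4%, against 32% of all genes on the chromosome). On chromosomes 1, 3, 4 and 5 it was 12 of 46, 8 of 59, 8 of 42 and 8 of 39, or 26.1%, 13.6%, 19% and 20.5%, against 35.1%, 35.9%, 33.9% and 32.9%. Of the 59 members on chromosome 3, which had the lowest share, 43 lay in runs.

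The 31 members without any peak were 26 genes of the CYP71 clan, 3 of the CYP85 clan and 2 of the CYP86 clan. The CYP85-clan genes were CYP702A2, CYP702A8 and CYP708A1, and the CYP86-clan genes CYP96A8 and CYP96A10. Besides those already named, they included CYP705A6, CYP705A23, CYP705A25, CYP706A1, CYP706A3, CYP71A23, CYP71B4, CYP71B25, CYP76C5, CYP81K1, CYP89A6 and CYP93D1. Their nearest peak in any replicate was 1030 to 9431 bp away, with a median of 1900 bp, and 18 of the 31 had one within 2000 bp. At the border of the window, CYP71A26 was counted in replicate 1 with a peak 884 bp away and CYP79F2 was not, at 1047 bp. In replicate 2 CYP76C6 at 981 bp was inside and CYP76C4 at 1032 bp outside, and in replicate 3 it was CYP714A2 at 995 bp and CYP81F4 at 1013 bp.

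The authors' series list of 3419 regions, which gives a peak height in each of 3 samples with no link to the replicate numbers, touched 19 members (8.68%, against 14.4% of all genes). All 19 were among the 49 with a peak in all 3 replicates. The highest mean height was at CYP704B1, on chromosome 1 from 26126101 to 26126551, with heights of 239, 137 and 415 (264 ± 141, SD, n = 3). CYP78A10 had 230, 185 and 312 (242 ± 64.4). The region shared by CYP71B31 and CYP71B32, on chromosome 3 from 19762571 to 19763091, had 252, 228 and 245 (242 ± 12.3). CYP77A6 had 191, 232 and 263 (229 ± 36.1). The spread between samples was wide at CYP704B1 and narrow at CYP71B31, so that the order of these 4 is not separated by their error. CYP707A1 had the narrowest spread of the 19, with 131 ± 5.69. No CYP79 gene, no CYP86-family gene and no CYP705 gene was in the list.

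Other genes of the P450 pathways ranged around the background share. Of 8 redox partners, the P450 reductase gene ATR2 (3.62, 8.31 and 5.88), the cytochrome b5 gene CB5-C (5.41, 7.01 and 5.13) and the cytochrome b5 reductase gene CBR (4.98, 4.60 and 4.48) had a peak in all 3 replicates (37.5%, against 34.1% of all genes). ATR1 had 4.83 and 5.91 in replicates 2 and 3. CB5-C lies beside CYP78A6 and shares its replicate 1 peak, but its best peaks in replicates 2 and 3 are others. Of 16 glucosinolate genes other than P450s, 4 had a peak in all 3 (25%): the regulators MYB51 and MYB34, the lyase gene SUR1, with 5.00, 6.43 and 4.31, and SOT16, which shares its peak with CYP78A10. Of 11 cutin and suberin genes it was also 4 (36.4%), GPAT4, GPAT8, BDG1 and PEL3, and 10 of the 11 had a peak in at least 2 replicates (90.9%, against 66.2%). These lists were chosen from textbook knowledge with earlier results of these data known.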

How the data were processed

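ChIP DNA of 3 replicates was analysed, and the input was not analysed here. The submitters' processing notes name Bowtie, with no version, and TAIR10. The caller of the peaks, its settings and its background were not given in the sources used here. For each replicate, a separate list was deposited, with raw tag counts per peak as whole numbers. The deposited score column has no header and was read, from the layout, as a multiple of the log10 of a p-value with its sign turned. The fold is the authors' ratio per peak, and the false discovery rate was deposited in percent. The authors' series list gives a height as its signal, with no stated scaling. Tags inside peaks do not give a library's depth.

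Names and neighbours of genes came from RefSeq (TAIR10.1), and none of its own coordinates is printed. The match to the peaks was checked by moving the 6687 stretches covered by all 3 replicates. Of their midpoints, 38.4% lay in coding genes without a shift, and 66.3% to 67.2% after shifts of 2000 bp. Promoter and protein sequences were not used here, so the planned promoter motifs were not searched. The best peak of a gene is that of highest fold in its window. A peak was assigned to the gene that holds its midpoint, or else to the nearest coding gene within 1000 bp. Overlaps were computed with Python 3.11.15 and pandas 2.3.3 and tested on simulated intervals.

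The members, clans, lists and named genes were chosen with earlier results of these data known. Named genes were the 12 with the highest lowest fold over the replicates, members of small families with a known role, the leading member of each large family and the highest 5 of the series list. CYP91A2 was added to the CYP71 clan after the gene table was seen, and the families chosen for description include some outside the planned list. No test was run.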

Additional observations from a re-analysis of the deposited data

How the results depend on the processing

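Under each of the 13 other settings that keep the 219 members, their share with a peak in all replicates stayed below that of all protein-coding genes. With no flank, 28 members had a peak in all 3 replicates (12.8%, against 23.6% of all genes). Then 81 had one in at least 2 (37%, against 50.8%) and 74 had none (33.8%, against 25.2%). The CYP71 clan had 11 genes with a peak in all 3 (7.75%) and the CYP86 clan 6 (19.4%). With flanks of 2000 bp, 13 had none (5.94%, against 8.14%), so the members' share with none was the lower one. The CYP71 clan had 44 with a peak in all 3 (31%, against 43.6%). With folds of at least 4 the counts in all 3, in at least 2 and in none were 12, 73 and 80. These are 5.48%, 33.3% and 36.5%, against 13.8%, 39.7% and 32.4% of all genes. At a false discovery rate of at most 1%, 48 had none (21.9%, against 20.1%). With lists of equal length the 3 counts were 22, 64 and 99 (10%, 29.2% and 45.2%, against 17.9%, 38% and 40%). The CYP71, CYP85 and CYP86 clans then had 8, 2 and 6 genes with a peak in all 3, and 12 families had such a gene. With each peak counted for 1 gene the 3 counts were 26, 88 and 73 (11.9%, 40.2% and 33.3%, against 16.8%, 42.8% and 28.7%). The CYP86 clan had 6 genes with a shared stretch (19.4%, against 28.5%). With each run of neighbouring members counted once beside the lone genes, 16 of 146 had no peak (11%, against 13.4%). Leaving out 1 replicate gave 53 to 125 members with a peak in all those left, which for 2 lists is also the count of at least 2. From 31 to 68 had none (14.2% to 31.1%, against 14.3% to 28.2% of all genes). By clan, those with a peak in all lists left were 28 to 73 in CYP71 (19.7% to 51.4%) and 6 to 15 in CYP72 (33.3% to 83.3%). They were 4 to 13 in CYP85 (20% to 65%) and 11 to 20 in CYP86 (35.5% to 64.5%), against 36% to 61% of all genes. From 24 to 36 families had such a member. The highest counts with a peak come without replicate 1, where 57.1% of members and 61% of all genes had a peak in both lists. Single families moved by over 1.5 times in 43 of 136 cases. Shared stretches could give no count of members with no peak. No paired analysis was possible because there is 1 group. The cause of these shifts was not tested. Depth is unknown, so a missing replicate 1 peak does not show absence.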

Other observations

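P450 genes that are known by another first symbol lie outside the rule, and 11 of them carry a P450 name as a synonym. A peak in all 3 replicates was found near 4 of the 11 (36.4%, against 34.1% of all genes). FAH1, the ferulate hydroxylase gene of syringyl lignin, had folds of 6.49, 4.20 and 6.16 in replicates 1, 2 and 3. The brassinosteroid gene ROT3 had 5.78, 4.53 and 6.60. BAS1, whose enzyme inactivates brassinosteroids, had 4.09, 5.41 and 3.88, and the hydroperoxide lyase gene HPL1 had 3.40, 6.10 and 4.46. All 4 also had a peak in each replicate for which they were the nearest gene or held the midpoint, as had no other of the 11.

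The other 7 varied. The lutein gene LUT1 had 3.43 and 3.30 in replicates 1 and 2, KAO2, a gibberellin synthesis gene, had 5.59 and 2.97 in replicates 2 and 3, and BR6OX2 had 4.45 and 5.55 there. BR6OX1, GA3 and the camalexin gene PAD3 had replicate 2 peaks alone, at 5.41, 4.71 and 3.49. UNE9 had no peak. Adding these 11 genes gives 53 of 230 with a peak in all 3 replicates, or 23%, against 34.1% of all genes.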
